A study of Drosophila melanogaster with 6 samples.

Results

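Glutathione S-transferases (GSTs) and UDP-glycosyltransferases (UGTs, also called UDP-glucuronosyltransferases) are large enzyme families of detoxification. GSTs couple glutathione, a small thiol peptide, to reactive compounds, and UGTs transfer a sugar from a UDP-sugar, in insects mostly UDP-glucose, to small lipophilic compounds, so that the products are more soluble and can be exported. The insect midgut is one of the tissues known for such enzymes, and many of the genes lie in tandem clusters of related copies. Their expression was examined here in enteroendocrine cells (EEs), the hormone-secreting cells of the midgut epithelium, with and without *pros*, which encodes the transcription factor Prospero. The members were taken by symbol from the deposited count table, as the genes whose symbol starts with Gst and a capital letter or with Ugt and a digit. This gave 52 of 17558 genes, of which 35 were *Gst* and 17 were *Ugt* genes. All 52 were matched to a protein-coding gene in RefSeq. RefSeq lists 35 genes with a *Gst* symbol, all of them members, and 35 with a *Ugt* symbol, of which 17 were members while the other 18 stood in the table under other symbols, mostly CG numbers.

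RNA was sequenced from 3 control samples (ProsV1-Gal4ts>UAS-GFP) and 3 *pros*-depleted samples, which carried the same transgenes and pros-RNAi in addition. The labels of *pros*-depleted replicates 2 and 3 write the driver as ProsV1-Gal5ts and ProsV1-Gal6ts, while the methods give a single driver. All flies were adult females of 5 to 7 days that were then kept at 29 °C for 7 days, a temperature at which the Gal80ts repressor no longer holds back Gal4. GFP+ cells that excluded a dead-cell stain, about 20000 per sample and from many pooled guts, were sorted, and their RNA was amplified. The control flies carried no hairpin, and the hairpin line used for sequencing is not named in the sources used here, so that effects of *pros* loss and of the hairpin transgene cannot be told apart. The labels number the samples of each group, and the p-values below measure the spread between these samples.

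Between 27183747 and 40766059 counts lay on genes in each sample. Values are given as CPM, counts relative to the library size, here scaled by edgeR's TMM method. A floor of 3 counts, the most that an observed 0 allows, came to 0.0755 to 0.110 CPM, a limit that covers counting error alone because PCR copies of a molecule are counted too. The targeted gene, *pros*, had 499.8, 548 and 836 CPM in control replicates 1 to 3 and 162, 138 and 162 CPM in the *pros*-depleted replicates. Of 10 EE markers, 9 were called lower in *pros*-depleted samples by the edgeR test described below. The other, *CCHa1*, was lower without overlap of the groups but was not called (log2 fold change -1.91). The summed EE marker level was 93355 to 103386 CPM in control and 6555 to 10922.5 CPM in *pros*-depleted samples. Of 12 enterocyte markers, 5 were called higher, with sums of 1799.5 to 5477 and 7195 to 16450.1 CPM. Also higher without overlap, but not called, were *alphaTry*, *betaTry*, *gammaTry*, *deltaTry* and *Myo31DF*, with log2 fold changes of 1.21 to 2.19. The groups overlapped in *Jon99Ciii* (-0.50), and *lab* was lower without overlap (-1.42, not called). Of 6 progenitor markers, 4 were called higher, with sums of 218 to 313 and 534 to 759.8 CPM. *E(spl)mbeta-HLH* was higher without overlap but not called (1.19), and the groups overlapped in *esg* (0.55). The sums of the other lists were low. They were 2.57 to 17.4 and 9.23 to 31.0 CPM for 5 fat body markers, and 2.00 to 5.64 and 4.03 to 5.83 CPM for 5 Malpighian tubule markers. Of the latter, *salt* was called higher (log2 fold change 4.92, from 2, 2 and 3 counts in control) and *Lkr* lower (-2.96). *Irk3* was higher without overlap but not called (1.74). The sums were 22.4 to 30.9 and 5.87 to 9.21 CPM for 6 visceral muscle markers, and 9.71 to 81.6 and 1.17 to 8.55 CPM for 4 haemocyte markers. Of the muscle markers, only *up* was called, lower (log2 fold change -3.82). It had 17.0, 16.6 and 25.1 CPM in control and 2.04, 0.696 and 1.38 CPM in *pros*-depleted samples. *Tm2* was lower without overlap but not called (-1.24), and the groups overlapped in *Mhc*, *Act57B*, *Mlc1* and *Mlc2* (-0.10 to 0.18). The highest haemocyte sum was that of control replicate 2, where *Ppn* had 61.8 CPM, against 6.72 and 15.0 CPM in control replicates 1 and 3. No listed marker found in the table was at 0 in all samples. The part that these other cell types or programmes have in the results below was not tested, and in bulk RNA a change in the number of cells of a type cannot be told apart from a change in RNA per cell.

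Levels between genes are compared per exonic length, as RPKM, which is CPM per kilobase of exon. In control EEs, the summed *Gst* level was 5088, 5539 and 5220.1 RPKM and the summed level of the 17 *Ugt* members 247, 228 and 257 RPKM, so that *Gst* transcripts were the far more abundant in every sample. *GstD1* of the Delta class, known for its activity towards the insecticide DDT, had the highest level, 1625 ± 287 RPKM (SD, n = 3). *GstO3* of the Omega class, enzymes with a cysteine in the active site, followed with 1335 ± 107 RPKM (SD, n = 3), and these neighbours in the order did not differ beyond their spread. Together they held 54.3%, 56.5% and 57.2% of the summed *Gst* RPKM in the control samples. The next levels were those of *GstE3* (279.8 RPKM), *GstE12* (230.2 RPKM), *GstE6* (201 RPKM) and *GstS1* (180.4 RPKM). Among the 17 *Ugt* members, the highest level was that of *Ugt36Bc*, with 149.7 ± 11.3 RPKM (SD, n = 3). *Ugt86Dh* (26.2 RPKM), *Ugt86Da* (21.0 RPKM), *Ugt86Dj* (15.97 RPKM), *Ugt36Ba* (10.7 RPKM) and *Ugt86Dd* (7.91 RPKM) followed. *Ugt86Dd* is a gene linked to nicotine resistance in fly larvae. At the other end, *GstE14*, which serves ecdysteroid synthesis in the ring gland, was almost undetected, at 1, 1 and 0 counts in control EEs and 3, 0 and 0 after *pros* depletion.

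To find which members changed, the groups were compared over the whole table with edgeR's quasi-likelihood test, and p-values were adjusted by the Benjamini-Hochberg method over the 10374 genes that reached 10 counts in 3 or more samples. Calls required an adjusted p under 0.01 together with a log2 fold change above 0.5 in size. Of the 35 *Gst* genes 34 were tested, and of the 17 *Ugt* genes 13. In *pros*-depleted EEs, 3 *Gst* genes were called higher and 5 lower, and 5 *Ugt* genes were called higher and 2 lower. Over all genes tested, 4.73% were called higher and 7.96% lower. The shares among tested *Gst* genes were 8.82% and 14.7%, and those among tested *Ugt* genes 38.5% and 15.4%, each share resting on few genes. The median log2 fold change was -0.29 over the 34 *Gst* genes and 1.26 over the 13 *Ugt* genes, beside 0.02 over all genes tested. The median without regard to sign was 0.47 for *Gst*, 1.47 for *Ugt* and 0.47 for all genes. Every *pros*-depleted sample lay above every control sample in 7 *Gst* and 7 *Ugt* genes (20.4% of all genes tested), and below in 15 *Gst* and 2 *Ugt* genes (22.5% of all genes tested). The groups overlapped in the other 12 *Gst* and 4 *Ugt* genes, while 43.0% of all genes tested did not overlap. DESeq2, a second count model, called 5 *Gst* genes higher and 9 lower and 6 *Ugt* genes higher and 2 lower, beside 9.41% and 12.2% of all genes. When single samples were left out, 1 to 3 *Gst* genes were called higher (1 without any of the control replicates or without *pros*-depleted replicate 2) and 4 to 6 lower. The *Ugt* genes called higher then numbered 1 without control replicate 2, 4 without *pros*-depleted replicate 3 and 3 otherwise, and those called lower 1 without control replicate 2 or 3 or *pros*-depleted replicate 3. The *Ugt* median was 0.80 without *pros*-depleted replicate 1 and 0.53 without replicate 2. *Ugt35b* (log2 fold change 2.67 over all samples) was not tested in the fits without a *pros*-depleted sample. Those medians therefore differ from that over all samples in the genes they cover as well as in the samples.

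**Figure D1:**
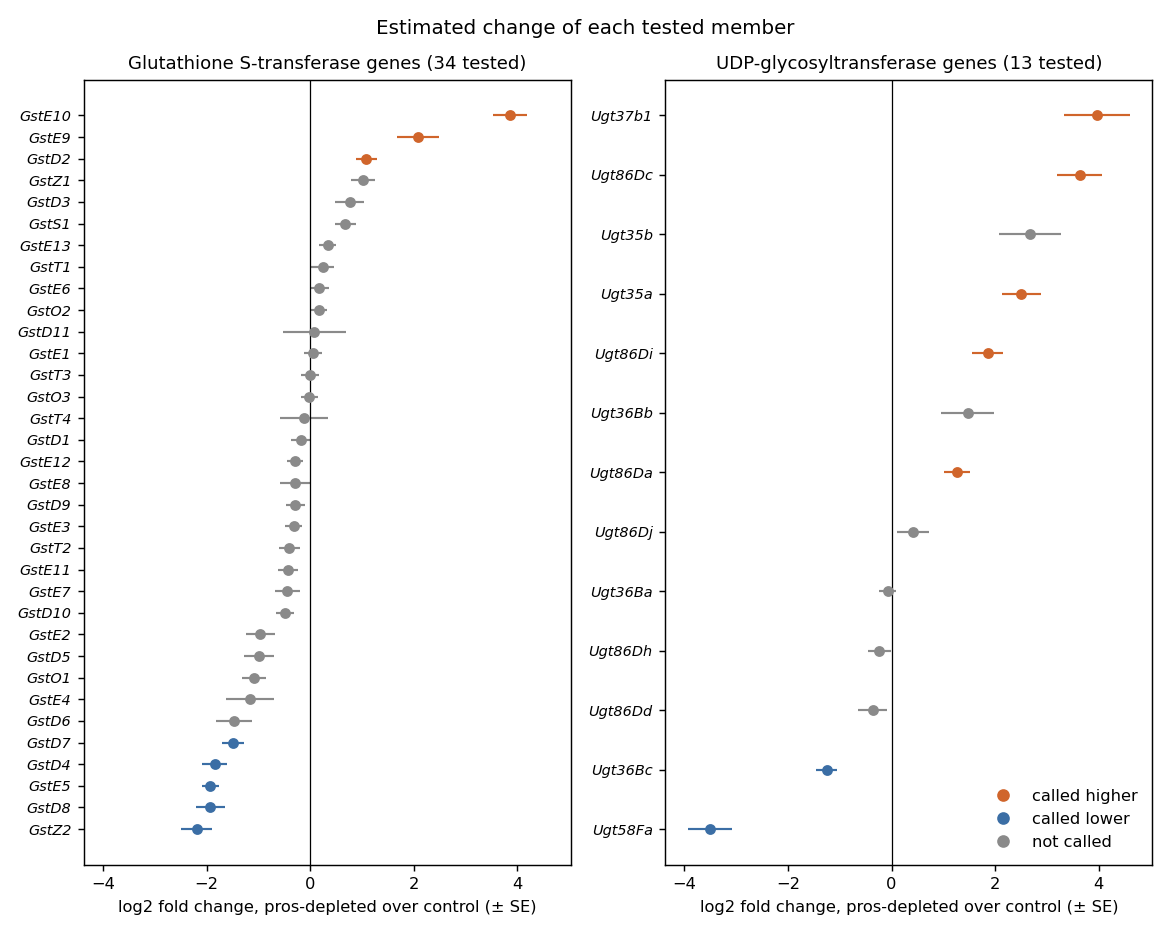
Estimated log2 fold change of each tested member (x axis, *pros*-depleted over control, points with 1 standard error), with *Gst* genes on the left and *Ugt* genes on the right, sorted by value and coloured by call. The *Gst* estimates run from -2.19 (*GstZ2*) to 3.86 (*GstE10*) and the *Ugt* estimates from -3.51 (*Ugt58Fa*) to 3.97 (*Ugt37b1*).

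The 11 Delta genes lie together on chromosome 3R between 12364776 and 12385624 (BDGP6, as the other coordinates here), and all were tested. *GstD8* (12380008 to 12380815), which the study lists among its EE signature genes, had 85.2, 93.4 and 61.2 CPM in control EEs and 28.8, 15.3 and 18.7 CPM in *pros*-depleted EEs. All *pros*-depleted values lay far below the control values. It fell by 1.93 on the log2 scale (standard error 0.28, edgeR adjusted p = 0.00206). The study chose that signature, so that the fall of a listed gene is not independent evidence. *GstD4* (12374100 to 12374824) had 12.9, 21.8 and 14.0 CPM and then 4.64, 4.58 and 4.30 CPM, with the *pros*-depleted samples almost equal to each other. Its log2 fold change was -1.85 (standard error 0.24, edgeR adjusted p = 0.00133). *GstD7* (12378500 to 12379255) had 16.9, 18.3 and 19.0 CPM in control and 8.02, 6.19 and 4.99 CPM in *pros*-depleted samples, again without overlap. Its log2 fold change was -1.50 (standard error 0.21, edgeR adjusted p = 0.00195).

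In the same cluster, *GstD2* (12371971 to 12372704) went the other way. It had 100.3, 82.5 and 101 CPM in control EEs and 159, 194 and 249.6 CPM in *pros*-depleted EEs, so that every *pros*-depleted sample was higher. It rose 2.12-fold, a log2 fold change of 1.08 (standard error 0.21, edgeR adjusted p = 0.00766). *GstD2* and *GstD4* are on the same strand, with *GstD3* between them at gaps of 363 and 286 bp. *GstD3* had 42.3, 38.5 and 25.4 CPM and then 50.02, 82.3 and 47.6 CPM, which did not pass the test (log2 fold change 0.76, standard error 0.28). *GstD6*, the *Gst* gene with the largest estimate among those not called by edgeR, had 3.50, 5.32 and 5.26 CPM and then 1.597, 1.10 and 2.36 CPM (log2 fold change -1.47, edgeR adjusted p = 0.0175). DESeq2 called *GstD6* lower (adjusted p = 0.00099), and also *GstD5* (adjusted p = 0.00736). *GstD5* had 33.8, 59.5 and 38.2 CPM and then 29.5, 16.9 and 19.5 CPM, without overlap. Its log2 fold change was -0.99 (standard error 0.29, edgeR adjusted p = 0.0366). The abundant *GstD1* had 1132, 1616 and 1360.0 CPM in control and 1062, 1245 and 1299 CPM in *pros*-depleted samples, which overlap. Its log2 fold change was -0.19 (standard error 0.19), so that the member with the highest level showed no change larger than the spread between samples. *GstD4* and *GstD7* were called in all 6 fits that each left out a sample, and *GstD8* in 5, with an adjusted p of 0.0117 from edgeR without *pros*-depleted replicate 3. *GstD2* was called only without *pros*-depleted replicate 1. In the other 5 fits, each without another sample, its adjusted p from edgeR reached up to 0.0399, with log2 fold changes of 0.91 to 1.24 over all 6.

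Of the 14 Epsilon genes, 10 form a cluster on chromosome 2R between 18396638 and 18409835. By edgeR, its outer members were called higher and an inner member lower. *GstE10* (18396638 to 18398519) had 1.08, 0.785 and 0.892 CPM in control EEs and 19.4, 10.95 and 9.97 CPM in *pros*-depleted EEs. From near the lower end of the family it rose 14.5-fold, a log2 fold change of 3.86 (standard error 0.34, edgeR adjusted p = 0.000213). It is the only member of the cluster on the minus strand, head to head with *GstE1*, and the exons of the neighbours share 20 bp. *GstE1*, an enzyme known to act on products of lipid peroxidation, had 63.8, 83.8 and 82.1 CPM and then 74.2, 79.2 and 84.4 CPM, with overlapping groups. At the other end of the cluster, *GstE9* (18409048 to 18409835) had 19.0, 13.9 and 19.3 CPM in control and 122, 60.1 and 37.9 CPM in *pros*-depleted samples. The *pros*-depleted samples were all higher but spread widely among themselves. *GstE9* rose 4.23-fold, a log2 fold change of 2.08 (standard error 0.41, edgeR adjusted p = 0.00773). Its exons share 40 bp with *imd*, a gene of immune signalling on the opposite strand, whose log2 fold change was -0.14 (standard error 0.24). In the middle, *GstE5* (18404605 to 18405338) had 44.6, 38.0 and 37.8 CPM and then 11.7, 10.1 and 9.78 CPM, with little spread in either group. It fell by 1.93 on the log2 scale (standard error 0.17, edgeR adjusted p = 0.000211). *GstE2*, another inner member, had 23.6, 25.5 and 17.7 CPM and then 8.52, 16.2 and 9.55 CPM, without overlap. It was not called by edgeR over all samples (log2 fold change -0.97, adjusted p = 0.0355). DESeq2 called *GstE2* lower (adjusted p = 0.00942).

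*GstE6*, 672 bp beyond *GstE5*, had 151, 163 and 138 CPM in control and 198, 144 and 167 CPM in *pros*-depleted samples, which overlap, and *GstE3* had 235, 195 and 203 CPM and then 184, 152 and 173 CPM. Neither passed the test, with log2 fold changes of 0.17 (standard error 0.18) and -0.32 (standard error 0.17). *GstE4* was near the low end, with 0.579, 0.428 and 0.863 CPM and then 0.376, 0.220 and 0.230 CPM, and was not called (log2 fold change -1.17, standard error 0.47). Outside the cluster, *GstE12* had 325, 297 and 344 CPM and then 261, 265 and 262 CPM, a non-overlapping difference that was not called (log2 fold change -0.29, standard error 0.15). In each of *GstE3* to *GstE10*, the highest of the *pros*-depleted values was that of replicate 1, which was not so in *GstE1* or *GstE2*. *GstE10* and *GstE5* were called in all 6 fits that each left out a sample. *GstE9* was called in 2 of them and not without control replicate 1, 2 or 3 or without *pros*-depleted replicate 2, with an adjusted p from edgeR of up to 0.0378 and log2 fold changes of 1.51 to 2.40 over all 6.

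**Figure D2:**
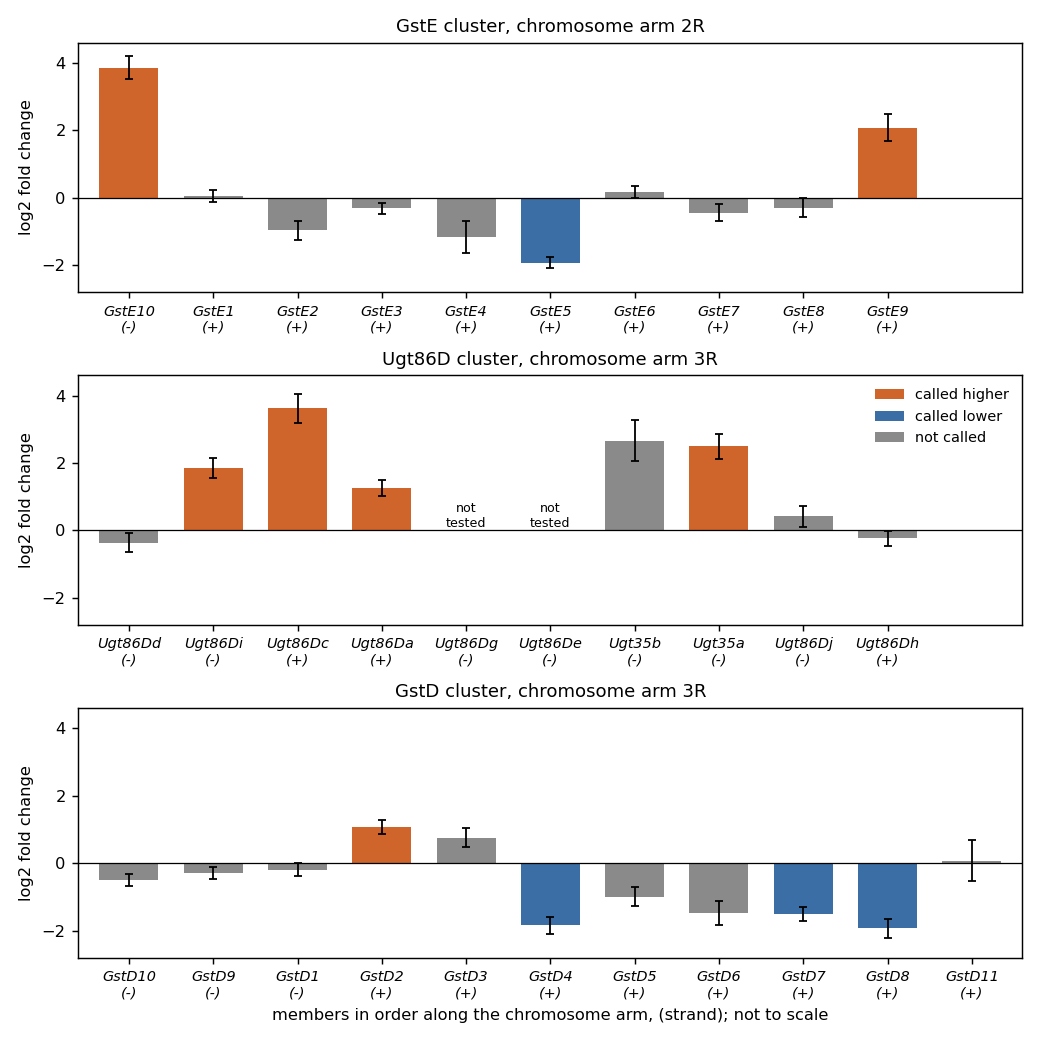
Log2 fold changes (bars, with 1 standard error) of the members of the 3 largest clusters in their order along the chromosome arm, with the strand of each gene under its name. Called genes are coloured, and 2 genes of the *Ugt86D* cluster were not tested. The *GstE* and *GstD* clusters hold genes called in opposite directions, while the 4 called genes of the *Ugt86D* cluster were all higher.

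Of the remaining classes, Zeta was the only one with a member called by edgeR, while DESeq2 also called *GstS1* of the Sigma class higher (adjusted p = 0.00794) and *GstO1* of the Omega class lower (adjusted p = 0.000307). Zeta enzymes are known from other species for a step of tyrosine breakdown. *GstZ2* (chromosome 3R, 9456815 to 9460652) had 159.9, 158 and 199 CPM in control EEs and 38.1, 23.3 and 51.4 CPM in *pros*-depleted EEs. It fell by 2.19 on the log2 scale, the lowest estimate among *Gst* genes (standard error 0.29, edgeR adjusted p = 0.00145), and was called in all 6 fits without a sample. Its neighbour *GstZ1*, 268 bp away on the same strand, had 5.71, 4.39 and 4.17 CPM and then 10.8, 10.59 and 7.61 CPM. These groups do not overlap, but edgeR did not call the increase (log2 fold change 1.02, standard error 0.23, edgeR adjusted p = 0.0149). DESeq2 called *GstZ1* higher (adjusted p = 0.00149), as did edgeR with libraries scaled by size alone (adjusted p = 0.00892). The single Sigma gene, *GstS1*, an abundant protein of flight muscle, had 323, 489 and 419 CPM and then 610.1, 687 and 675 CPM. All *pros*-depleted samples were higher, and the difference was not called (log2 fold change 0.68, standard error 0.20, edgeR adjusted p = 0.0374). Among the 3 Omega genes, which lie together on chromosome 3L between 8518885 and 8524866, *GstO1* had 69.9, 83.8 and 70.0 CPM and then 24.8, 37.8 and 43.3 CPM. This difference just missed the threshold and was not called by edgeR (log2 fold change -1.08, standard error 0.23, edgeR adjusted p = 0.0113). *GstO3* had 1249.7, 1069.8 and 1209 CPM and then 1120.2, 1276 and 1083 CPM, which overlap. Its log2 fold change was -0.02 (standard error 0.17), and turned to 0.0883 when libraries were scaled by their size alone. None of the 4 Theta genes was called by edgeR (0 at an unadjusted p under 0.05 and 0 by DESeq2), with log2 fold changes from -0.41 to 0.24.

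**Figure D3:**
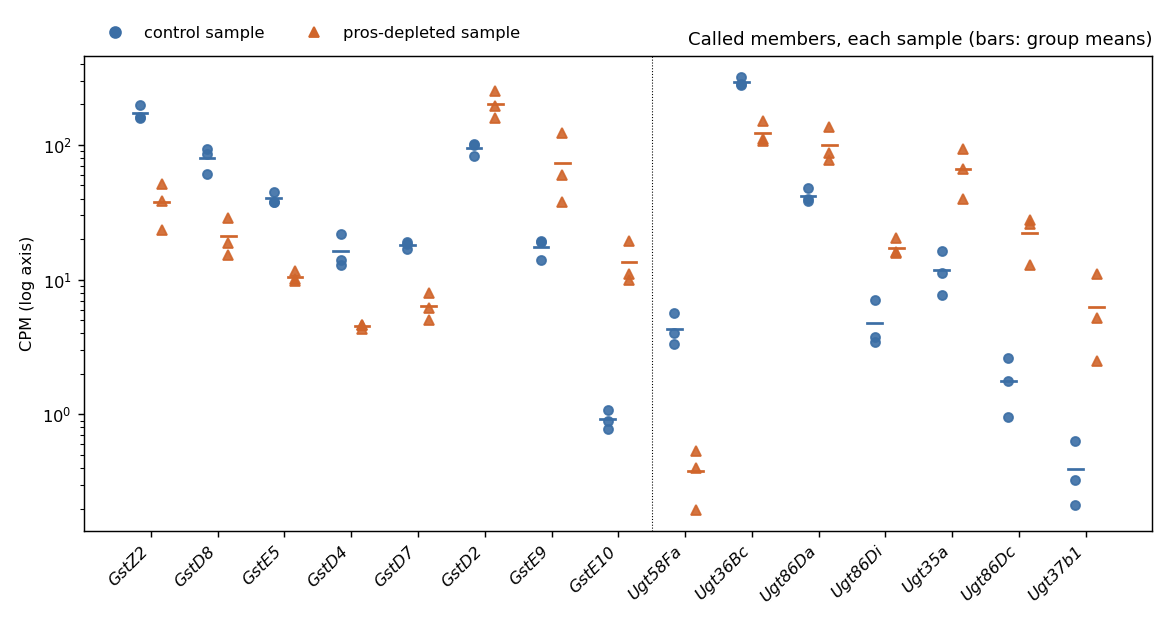
CPM (log axis) of the 15 called members in each control sample (circles) and each *pros*-depleted sample (triangles), with *Gst* genes left of the dotted line, *Ugt* genes right of it, and bars at the group means. In each gene the groups do not overlap, and *GstE9* and *Ugt37b1* spread widely among *pros*-depleted samples.

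Of the 17 *Ugt* genes, 10 lie on chromosome 3R between 11126597 and 11177910, in the *Ugt86D* cluster, of which 8 were tested, 4 called higher by edgeR and none lower (0 at an unadjusted p under 0.05 and 0 by DESeq2). In *Ugt86Dc* (11154626 to 11156513), the control samples had 1.76, 0.964 and 2.62 CPM and the *pros*-depleted samples 26.0, 27.8 and 12.9 CPM. It rose 12.4-fold, a log2 fold change of 3.63 (standard error 0.43, edgeR adjusted p = 0.000818). On its sides lie *Ugt86Di*, head to head at 776 bp, and *Ugt86Da* at 584 bp, and both rose as well. *Ugt86Di* (11151026 to 11153849) had 7.10, 3.43 and 3.77 CPM and then 15.7, 20.3 and 15.9 CPM, a log2 fold change of 1.85 (standard error 0.30, edgeR adjusted p = 0.00361). *Ugt86Da* (11157098 to 11159744) had 47.7, 38.2 and 39.5 CPM and then 86.5, 137 and 77.7 CPM, a log2 fold change of 1.26 (standard error 0.24, edgeR adjusted p = 0.00748). *Ugt35a* (11170817 to 11172664), which RefSeq now names *Ugt35A1*, had 16.2, 11.2 and 7.74 CPM in control and 65.7, 93.3 and 40.0 CPM in *pros*-depleted samples. It rose 5.66-fold, a log2 fold change of 2.50 (standard error 0.37, edgeR adjusted p = 0.00233), and moved from rank 7 to rank 3 of the 17 *Ugt* members by RPKM.

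Among the other genes of the cluster, *Ugt35b* gave 4, 2 and 4 counts in control EEs and 34, 13 and 11 after *pros* depletion. Its groups did not overlap. It was not called by edgeR (log2 fold change 2.67, standard error 0.60, adjusted p = 0.0137) and was called higher by DESeq2 (adjusted p = 0.00884). *Ugt86Dh* had 45.05, 51.7 and 62.8 CPM and then 50.6, 51.9 and 32.9 CPM. *Ugt86Dj* had 33.4, 24.5 and 25.3 CPM and then 36.2, 53.1 and 21.9 CPM, and *Ugt86Dd* had 15.96, 10.96 and 12.7 CPM and then 13.2, 11.1 and 6.56 CPM. The groups overlapped in these last 3 genes, which lie at the ends of the cluster, with log2 fold changes of -0.24, 0.42 and -0.37. *Ugt86Dg* and *Ugt86De* were not tested, with 1, 3 and 7 counts in control and 25, 25 and 5 counts in *pros*-depleted samples for the former, and 1, 6 and 0 and then 2, 5 and 8 counts for the latter. *Ugt86Dc* was called in all 6 fits that each left out a sample. *Ugt35a* was not called without control replicate 2 (edgeR adjusted p = 0.0141). *Ugt86Di* was called only without control replicate 1 and *Ugt86Da* only without *pros*-depleted replicate 3. In the other 5 fits of each, the adjusted p from edgeR reached up to 0.0150 and 0.0385, and over all 6 fits the log2 fold changes were 1.65 to 2.27 and 0.98 to 1.43.

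Outside this cluster, *Ugt36Bc* (chromosome 2L, 16799025 to 16801584), the *Ugt* member with the highest level, had 282, 278 and 318 CPM in control EEs and 151, 107 and 109.9 CPM in *pros*-depleted EEs. It fell by 1.26 on the log2 scale (standard error 0.19, edgeR adjusted p = 0.00279) and had the highest mean RPKM of the 17 *Ugt* members in both groups. *Ugt36Ba*, its neighbour but 1 on the same strand, had 19.8, 18.1 and 20.1 CPM and then 16.2, 21.2 and 17.7 CPM, which overlap (log2 fold change -0.07, standard error 0.17, and 0.0334 with libraries scaled by size alone). *Ugt36Bb*, between them, had 11, 7 and 5 counts and then 28, 10 and 19 counts and was not called (log2 fold change 1.47, standard error 0.50). *Ugt58Fa* (chromosome 2R, 22641786 to 22643917) had 5.66, 4.03 and 3.31 CPM and then 0.532, 0.403 and 0.197 CPM. It fell by 3.51 on the log2 scale (standard error 0.43, edgeR adjusted p = 0.000966), the lowest estimate of all members. *Ugt37b1* (chromosome 2L, 6225048 to 6226842) was near the floor in control EEs, at 0.327, 0.214 and 0.633 CPM (13, 6 and 22 counts), and reached 11.1, 5.16 and 2.49 CPM (353, 141 and 76 counts) after *pros* depletion. It rose 15.6-fold with a wide spread, a log2 fold change of 3.97 (standard error 0.64, edgeR adjusted p = 0.00338). Of the low genes not tested, *Ugt37a1* had 1, 1 and 5 counts and then 21, 13 and 6 counts, and *Ugt37c1* had 0, 3 and 1 and then 1, 1 and 0 counts. *Ugt58Fa* was called in all 6 fits without a sample. *Ugt37b1* was not called without control replicate 1 or 2 (adjusted p from edgeR up to 0.0166). *Ugt36Bc* was not called without control replicate 2 or 3 or *pros*-depleted replicate 3 (adjusted p from edgeR up to 0.0142), with log2 fold changes of -1.42 to -1.16 over the 6 fits.

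The *Gst* genes summed to 4848, 5312 and 5049 CPM in control EEs and 4714, 5045 and 4901 CPM in *pros*-depleted EEs, and the *Ugt* genes to 475, 442 and 497 CPM and then 476, 529.6 and 339.8 CPM. Thus the family sums overlapped between the groups although 15 members were called. *GstD1* and *GstO3* together held 52.3%, 56.8% and 55.1% of the summed *Gst* RPKM in *pros*-depleted samples, overlapping their share in control samples. Of the summed RPKM of the 17 *Ugt* members, which leaves out the UGT genes under other symbols, the share of the leading members in control, *Ugt36Bc* and *Ugt86Dh*, was 67.5%, 73.4% and 75.4% in control EEs and 40.7%, 28.6% and 40.9% in the *pros*-depleted samples, without overlap. The difference lay in *Ugt36Bc*, with 58.5%, 62.2% and 63.4% in control and 30.8%, 19.5% and 31.8% in *pros*-depleted samples. The share of *Ugt86Dh* overlapped between the groups. The *Ugt86D* cluster summed to 167, 141 and 155 CPM in control and 296, 395 and 209 CPM in *pros*-depleted samples, while the 3 *Ugt36B* genes summed to 302, 296 and 338 CPM and then 168, 128 and 128 CPM. Within the *Gst* family, *GstD2* moved from rank 8 to rank 4 by RPKM, *GstE9* from 27 to 11, *GstD8* from 11 to 20 and *GstZ2* from 15 to 23.

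**Figure D4:**
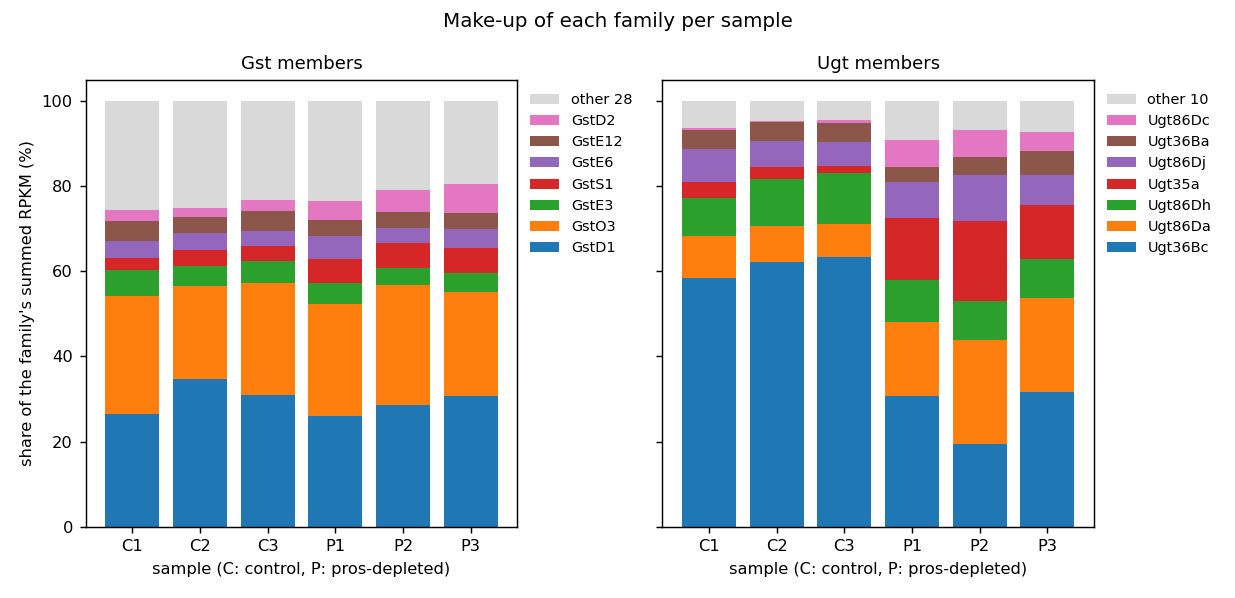
Share of each family's summed RPKM (y axis, %) taken by its 7 leading genes and by all others in each control sample (C1 to C3) and *pros*-depleted sample (P1 to P3). In the *Ugt* panel, which holds the 17 members taken by symbol, the share of *Ugt36Bc* and *Ugt86Dh* together was at least 67.5% in control samples and at most 40.9% in *pros*-depleted samples, while *GstD1* and *GstO3* held 52.3% to 57.2% of the *Gst* sum in all samples. The share of *Ugt86Dh* alone overlapped between the groups.

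The UGT genes that carry other symbols in the table were examined beside the members. Of these 18 genes, 16 were tested, 2 were called higher and 3 lower, and the median log2 fold change was -0.35. These counts rest on few genes and stand beside 4.73% higher and 7.96% lower over all genes tested. *CG15661* (*Ugt49C1* in RefSeq) rose from 0.503, 0.464 and 1.18 CPM to 5.98, 9.08 and 7.51 CPM, a log2 fold change of 3.38 (standard error 0.41, edgeR adjusted p = 0.000909). *CG4302* (*Ugt49B1*) rose from 2.64, 1.46 and 3.94 CPM to 31.2, 20.9 and 13.1 CPM, a log2 fold change of 3.01 (standard error 0.43, edgeR adjusted p = 0.00197). *CG16732* (*Ugt303B1*) fell from 133, 133 and 122 CPM to 29.9, 44.8 and 29.2 CPM, a log2 fold change of -1.90 (standard error 0.21, edgeR adjusted p = 0.000629). *CG30438* (*Ugt50B3*) fell from 1.99, 2.78 and 2.93 CPM to 0.251, 0.476 and 0.164 CPM, a log2 fold change of -3.11 (standard error 0.46, edgeR adjusted p = 0.00222). In these 4 genes the groups did not overlap, and *CG30438* was the only one of them not called in every fit without a sample, since its adjusted p from edgeR was up to 0.0109 without control replicate 2 or *pros*-depleted replicate 1. The remaining called gene, *CG6475* (*Ugt49B2*), had few reads, with 47, 12 and 27 counts in control and 0, 1 and 0 in *pros*-depleted samples. Its log2 fold change was -5.74 (standard error 0.90, edgeR adjusted p = 0.00288). *CG6475* was the least stable, tested in 3 of the 6 fits without a sample and called in 1. By level, *CG10170* (*Ugt303B3*), named after its values were seen, had 125 RPKM in control and 91.4 RPKM in *pros*-depleted samples and was not called. Its *pros*-depleted mean lay above that of *Ugt36Bc*, 62.7 RPKM, and *CG10170* and *CG16732* (73.6 RPKM in control) both lay above *Ugt86Dh*, so that the order given for the 17 members is not that of all UGT genes.

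Of 8 listed genes for the supply and transport of UDP-sugars that were found in the table, 7 were tested and 1 was called. This was *Hex-C*, a hexokinase, which rose from 0.403, 0.321 and 0.201 CPM to 6.01, 2.89 and 3.05 CPM (log2 fold change 3.67, standard error 0.45, edgeR adjusted p = 0.000996). Of 15 listed genes for the export of conjugates, 14 were tested, 5 were called lower by edgeR and none higher (3 at an unadjusted p under 0.05, and 1 by DESeq2). *CG11897*, an ABC transporter gene, fell from 183, 176 and 147 CPM to 48.2, 62.2 and 68.9 CPM (log2 fold change -1.50, standard error 0.20, edgeR adjusted p = 0.00133). *Hex-C* and *CG11897* were called in all 6 fits without a sample. The other 4 export genes called lower were less stable, with *CG31792* called in 4 of the 6 fits (not without control replicate 2 or 3), *Mdr50* in 1 (only without *pros*-depleted replicate 1), and *Mdr49* and *CG31793* in 0. Their adjusted p from edgeR reached up to 0.0118, 0.0260, 0.0386 and 0.0407 in that order. On these 3 lists together, 3 of 37 tested genes were called higher and 8 lower, beside 4.73% and 7.96% of all genes tested. The lower genes on these lists numbered 2 to 5 when single samples were left out, with 2 without control replicate 2. Of the other glutathione genes, 26 of 44 listed symbols were found in the table (several of the others are alternative names of members), and 22 were tested. None was called higher by edgeR (3 at an unadjusted p under 0.05, and 0 by DESeq2) and 1 lower, and their median log2 fold change was -0.08. The called gene was *CG4829*, a predicted enzyme of glutathione turnover, which fell from 2.99, 5.78 and 4.95 CPM to 1.32, 0.440 and 1.21 CPM (log2 fold change -2.19, standard error 0.45, edgeR adjusted p = 0.00988). No fit without a sample called it (0 of 6), with an adjusted p from edgeR of up to 0.0405 (without control replicate 2). The 3 tested genes of 6 listed for glutathione synthesis and the 5 tested regulators of the stress response were not called by edgeR. The groups overlapped in *Gclc* (log2 fold change 0.21, standard error 0.23) and *Keap1* (-0.33, standard error 0.24). They did not overlap in *Gclm* (-0.77, standard error 0.26, edgeR adjusted p = 0.0585) and *cnc* (0.57, standard error 0.18, edgeR adjusted p = 0.0495). Lower without overlap were the regulators *Hr96* (-0.87, standard error 0.28, edgeR adjusted p = 0.0525) and *maf-S* (-0.56, standard error 0.25, edgeR adjusted p = 0.133). *Gclc*, *Gclm*, *cnc*, *Keap1*, *Hr96* and *maf-S* were named after their values were seen.

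The strand setting of the counting and the treatment of multi-mapping reads are not given in the sources used here. Reads of overlapping exons and of closely similar copies, of which both families have many, may therefore have been split or lost. Exons of 7 members overlapped another gene, all on the opposite strand, and the overlap was longest in *GstT2*, which shares 223 of 887 bp with *CG12926*. Of the called genes, only *GstE10* (20 bp) and *GstE9* (40 bp) were among them. How similar the copies are in sequence was not analysed here.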

How the data were processed

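RNA-seq of 6 samples of sorted EEs was used. The authors deposited 1 table of gene counts, made with featureCounts 1.6.3 from single-end reads mapped to BDGP6 and not normalized, beside each gene's exonic length. The aligner is not given in the sources used here. Samples were grouped by their titles. The test was that of edgeR 4.0.16 in R 4.3.3 (TMM scaling, quasi-likelihood test, Benjamini-Hochberg adjustment). The filter was at least 10 counts in at least 3 samples, and the thresholds are those of the paper's methods. Standard errors were obtained by dividing the size of each log2 fold change by the root of its F statistic. RPKM was computed from the scaled CPM and the exonic length. DESeq2 1.42.0, other scalings, filters and thresholds, a replicate block and leaving out each sample were alternatives. The scripts were tested on simulated counts. Tables used Python 3.11.15 and pandas 2.3.3, and figures matplotlib 3.10.9. No 2 samples of a group agreed within counting noise (chi-square over degrees of freedom between 137 and 331).

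Members and lists were chosen with earlier results of these data known. Named members are all called genes, the 6 per family with the highest control RPKM, the 3 per family with the largest uncalled change, and *GstD8*. Listed pathway genes were named where called, up to 6 per list by adjusted p. *GstD3*, *GstD5*, *GstE1* and *GstZ1*, neighbours of called genes, were named after their values were seen, as were *GstE2*, *CG10170*, *CG6475*, the 4 less stable export genes and low genes not tested.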

Additional observations from a re-analysis of the deposited data

How the results depend on the processing

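The 15 called members kept their direction under all alternatives, and all 15 were called with DESeq2, RLE scaling, library size alone, no filter, a minimum mean of 50 counts, a threshold of 0.05 on the adjusted p and one of 1 on the log2 fold change. DESeq2 and an adjusted p under 0.05 each called 22 members, with 5 *Gst* genes higher and 9 lower. For all genes, DESeq2 called 976 higher and 1267 lower, and an adjusted p under 0.05 gave 1184 and 1519. The latter gave 7 genes higher on the joint list of UDP-sugar, other UGT and export genes and 2 higher and 2 lower among the other glutathione genes, where DESeq2 gave 2 lower, and library size alone and the minimum mean gave 0. On that joint list, the minimum mean lowered the genes called lower from 8 to 5. With the replicate number as a block, 11 members were called, with 1 *Gst* and 3 *Ugt* genes higher, and 0 other glutathione genes and 5 genes of the joint list (of 8) lower. The numbers share no stated origin, and the correlations of same-numbered samples were -0.16, 0.20 and 0.10, so no pairing was assumed. When 1 sample was left out, 8 to 13 members were called, fewest without control replicate 2. *Gst* genes called higher numbered 1 to 3 and lower 4 to 6, and *Ugt* genes 1 to 4 and 1 to 2. Other glutathione genes called lower numbered 0, genes of the joint list 2 to 5, and all genes 188 to 317 higher and 413 to 596 lower. The median of *Ugt* log2 fold changes was 0.53 to 1.38, lowest without *pros*-depleted replicate 2. In the fits without a *pros*-depleted sample it leaves out *Ugt35b*, which was not tested there. Library size alone moved the median log2 fold change of all genes by 0.12 and the mean summed CPM of *Gst* genes in *pros*-depleted samples from 4887 to 5089.8. The sign of *GstO3* turned with that scaling (0.0883) and without control replicate 1 (0.0318) or *pros*-depleted replicate 1 (0.0161) or 3 (0.0382), the values without 1 sample lying between -0.0978 and 0.0382, and that of *Ugt36Ba* with that scaling (0.0334) and without *pros*-depleted replicate 1 (0.0201), between -0.179 and 0.0201. Of the members, 5 were not tested at this depth because of low counts.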
